A study of Mus musculus with 16 samples.

Results

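The genes for the proteins of the mitochondrial ribosome were followed through osteoclast formation, with and without α-ketoglutarate. They were taken as the array features that carry exactly 1 gene symbol of the form Mrpl or Mrps followed by a number, and where a gene had several such features, that of highest mean over the 16 arrays stood for it. This gave 71 genes, 43 named Mrpl and 28 named Mrps, from 80 features, out of 22180 genes with 1 symbol on the array. By their known place, 45 encode proteins of the large subunit and 25 proteins of the small subunit. That count puts Mrps30 and Mrps18a with the large subunit, where structures show their proteins despite the names. The remaining gene, Mrps36, encodes a protein since recognised as a subunit of the α-ketoglutarate dehydrogenase complex. The features of 7 further genes, Mrpl30, Mrpl33, Mrpl41, Mrpl43, Mrpl44, Mrpl53 and Mrps6, carry the symbol of another gene as well and were left out by the rule.

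The cells were bone marrow-derived macrophages from tibias and femurs of 5 week old male C57BL/6 mice, cultured with macrophage colony-stimulating factor (M-CSF). M-CSF and the cytokine RANKL together turn such macrophages into osteoclasts, the large multinucleate cells that resorb bone. The αKG arm received 1 mM dimethyl α-ketoglutarate, a cell-permeable ester of an intermediate of the tricarboxylic acid cycle, and RANKL, with 1 array at each of 0.5, 1, 3, 6, 12, 24, 48 and 72 h. The DW arm received the control treatment labelled DW and RANKL, with 1 array at each of 3, 6, 12, 24, 48 and 72 h, and 2 further arrays, at 0 h, came from macrophages given DW and M-CSF but no RANKL. The labels put neighbouring times into phases of 2 arrays: fast for 0.5 and 1 h (αKG arm), early for 3 and 6 h, intermediate for 12 and 24 h, late for 48 and 72 h. The labels do not say whether separate cultures or mice stand behind the arrays. The p-values therefore speak only of the spread among these arrays, and some of that spread is the difference in time within a phase. Since the 0 h arrays lacked RANKL and stand at the start of the course, the effects of RANKL and of time cannot be told apart in comparisons with 0 h. No αKG array stood at 0 h or lacked RANKL. In comparisons of the αKG arm with 0 h, the effect of αKG therefore cannot be told apart from those of RANKL and time.

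Mitochondria keep a small genome of their own, and the few proteins it encodes are core subunits of the respiratory chain and the ATP synthase. A dedicated ribosome makes these proteins: its RNAs come from the mitochondrial genome, while all of its proteins are encoded in the nucleus, made in the cytosol and imported. Osteoclasts are rich in mitochondria, and the coactivator PGC-1β (Ppargc1b) and the receptor ERRα (Esrra) are known to promote mitochondrial biogenesis in them.

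The values are the authors' deposited log2 values, 1 per feature and array, and array medians lay between 4.84 and 4.93. Of the whole array, 15526 genes remained after the lowest 30% by mean value (below 4.34 log2) were left out, and all 71 mitoribosome genes were among them. The dimmest was Mrps36 with a mean of 4.67, close to that limit, and the next was Mrpl27 with 4.98. Over all genes tested the 2 arrays at 0 h differed with an SD of 0.20 log2, and over the mitoribosome genes with an SD of 0.14, the largest single difference being 0.48. Osteoclast markers marked the cells as labelled: 6 of 8 (Acp5, Ctsk and Mmp9 among the 8) were called higher in DW late arrays than at 0 h, and all 8 were called lower in αKG late than in DW late arrays. All 7 neutrophil markers that could be tested were called lower in DW late arrays than at 0 h, as were 2 of 8 macrophage markers, Fcgr1 and Itgam. In RNA from a whole culture, fewer cells of a type and less RNA per cell cannot be told apart.

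Taken as a group, the mitoribosome genes moved little, and their course had a low point at 6 to 12 h, a high point at 24 to 48 h and a return towards the starting level at 72 h. Set against the mean of the 0 h arrays, the mean of the 71 genes in the αKG arm differed by -0.03, -0.09, -0.05, -0.12, -0.10, 0.08, 0.14 and -0.07 log2 at 0.5, 1, 3, 6, 12, 24, 48 and 72 h. In the DW arm the same mean differed by -0.04, -0.08, -0.14, 0.20, 0.25 and 0.04 log2 at 3, 6, 12, 24, 48 and 72 h. Each 0 h array lay within 0.02 of their mean. At 48 h, 52 of the 71 genes in the αKG array and 60 in the DW array were above their 0 h mean, whereas at 12 h only 23 and 21 were. At 72 h the number was 25 in the αKG array and 35 in the DW array. The small positive mean at 72 h in the DW arm depended on scaling, being 0.15 log2 after quantile normalization and -0.02 after centring on array medians. The heat map of all 71 genes shows the same band of high values at 24 and 48 h in both arms.

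**Figure D1:**
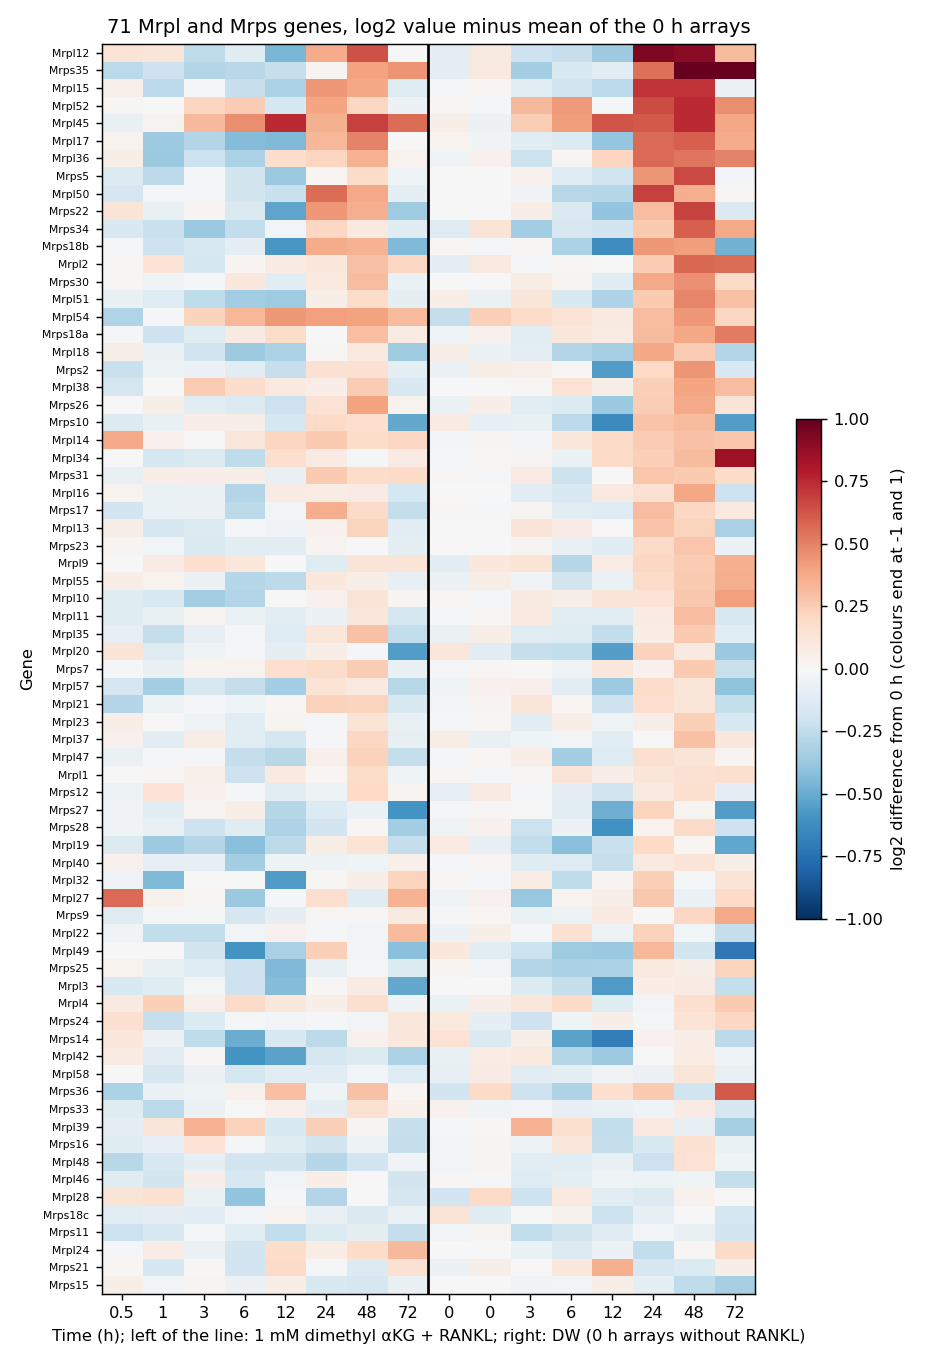
Log2 value minus the mean of the 0 h arrays for each of the 71 genes (rows, ordered by their mean difference at 24 and 48 h in the DW arm) in each array (columns, time in h). The αKG arrays stand left of the black line and the DW and 0 h arrays right of it. The columns at 24 and 48 h are mostly red in both arms, in the DW arm most strongly for Mrpl12, Mrps35 and Mrpl15, while Mrps15 and Mrps21 at the bottom are not.

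The 2 largest median steps of the members in each arm were those from 12 to 24 h and from 48 to 72 h. At the other steps smaller majorities moved the same way, up to the 47 genes that rose from 24 to 48 h in the DW arm. Between the 12 and 24 h arrays 48 of the 71 genes moved up in the αKG arm, with a median of 0.11 log2, and 60 moved up in the DW arm, with a median of 0.28 log2. Over all genes tested 48.85% moved up in the αKG arm and 49.73% in the DW arm. The reverse step followed between 48 and 72 h, when 54 genes moved down in the αKG arm (median -0.22 log2) and 55 in the DW arm (median -0.21 log2). Of all genes tested 48.13% moved up at that step in the αKG arm and 48.51% in the DW arm. Of the 6 times that both arms share, the highest array was that at 48 h for 29 genes in the αKG arm and 32 in the DW arm, and that at 24 h for 17 and 20 genes. For comparison, 17.43% of all genes tested were highest at 48 h in the αKG arm and 15.77% in the DW arm. These steps rest on 1 array per time and arm and have no test.

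Both subunits followed this course. In the αKG arm the 45 genes of large-subunit proteins differed from 0 h on average by -0.08, 0.10, 0.16 and -0.06 log2 at 12, 24, 48 and 72 h, and in the DW arm by -0.10, 0.23, 0.26 and 0.06 log2. The 25 genes of small-subunit proteins differed by -0.15, 0.04, 0.10 and -0.10 log2 in the αKG arm at those times, and by -0.22, 0.14, 0.25 and -0.03 log2 in the DW arm. The small-subunit genes were thus lower on average than the large-subunit genes at each of these times in both arms, which was not tested.

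Members differed in how far they moved. The range over the 16 arrays had a median of 0.66 log2 over the mitoribosome genes, against 0.74 over all genes tested. It was widest for Mrps35 (1.72), Mrpl12 (1.39), Mrps22 (1.20), Mrpl34 (1.10) and Mrps18b (1.05). It was narrowest for Mrps11 (0.28), Mrpl58 (0.31), Mrpl46 (0.31), Mrps18c (0.34) and Mrpl4 (0.38). Mrpl58 encodes a peptidyl-tRNA hydrolase that became part of the large subunit, and it had values from 8.21 to 8.51 across all arrays. As a description over 16 arrays that share a time course, a gene's correlation with the mean of the other 70 had a median of 0.57, and it exceeded 0.8 for 15 genes. Mrpl15 followed the mean most closely (r = 0.956), with Mrpl12 and Mrpl17 next (0.928 each). It was below 0 for 5 genes, Mrps15 (-0.685), Mrps21 (-0.531), Mrps18c (-0.077), Mrpl39 (-0.032) and Mrpl24 (-0.022).

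Mrpl12, the stalk protein that recruits translation factors to the large subunit and has been reported to bind the mitochondrial RNA polymerase, showed the shared course in its widest form. Its log2 values in the αKG arm were 7.45, 7.43, 7.06, 7.19, 6.85, 7.68, 7.95 and 7.31 at 0.5, 1, 3, 6, 12, 24, 48 and 72 h. In the DW arm they were 7.10, 7.08, 6.95, 8.24, 8.21 and 7.63 from 3 to 72 h, against 7.22 and 7.40 at 0 h. The 24, 48 and 72 h arrays of the DW arm lay above both 0 h arrays, and those at 3, 6 and 12 h lay below both. Its 2 arrays within a phase differed widely in the intermediate and late phases, and the standard error draws on the spread within all 8 groups. The DW late difference from 0 h of 0.61 ± 0.39 log2 (standard error) did not pass (limma, adjusted p = 0.4118).

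Mrps22, a small-subunit protein without a bacterial counterpart, had log2 values of 7.28, 7.08, 7.18, 7.01, 6.63, 7.59, 7.52 and 6.80 in the αKG arm from 0.5 to 72 h. In the DW arm it had 7.22, 7.01, 6.76, 7.46, 7.83 and 7.01 from 3 to 72 h, against 7.15 and 7.16 at 0 h. The 24 and 48 h arrays were above, and the 12 and 72 h arrays below, both 0 h arrays in each arm. Mrps15, a small-subunit protein with a bacterial counterpart, ran the other way. Its values were 9.48, 9.40, 9.45, 9.37, 9.49, 9.27, 9.26 and 9.35 in the αKG arm and 9.39, 9.40, 9.48, 9.33, 9.17 and 9.09 in the DW arm, against 9.43 and 9.42 at 0 h. Its DW late difference from 0 h was -0.30 ± 0.12 log2 and did not pass (limma, adjusted p = 0.175).

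**Figure D2:**
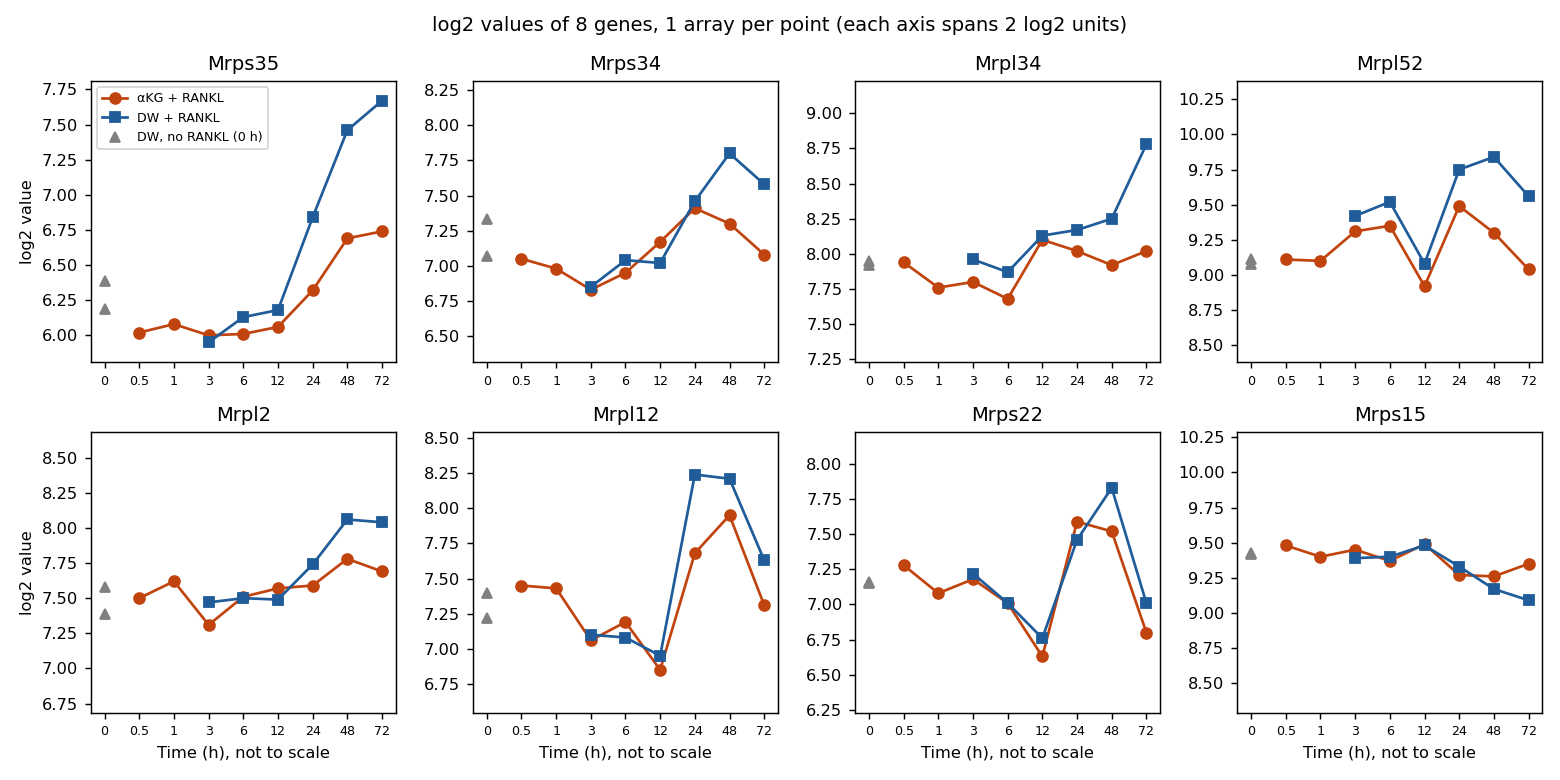
Log2 values of 8 mitoribosome genes (vertical axis, 2 log2 units in each panel) against time in h (horizontal axis, not to scale), 1 array per point, for αKG with RANKL, DW with RANKL and the 0 h arrays without RANKL. Mrps35 stood at 6.74 in the αKG arm and 7.67 in the DW arm at 72 h, Mrpl12 and Mrps22 were lowest at 12 h and highest at 24 or 48 h, and Mrps15 was lowest at 72 h in the DW arm.

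Promoter sequences of 62 of the 71 genes were found in the RefSeq table (GRCm38.p6), 300 bases each, from 250 before to 50 after the first listed start. Since many members moved alike, 5 short motifs named after regulators of mitochondrial or growth genes were counted on both strands. The NRF1 motif GCATGCGC was in 7 of the 62 promoters (11.3%), against 2.80% of all 27025 promoters. The ETS motif CCGGAAGT, of the kind bound by GABPA, was in 9 (14.5% against 4.0%), and the YY1 motif AAGATGGC in 12 (19.4% against 2.88%). Most of the YY1 matches began after the start, from base 11 (Mrps18a) to base 36 (Mrps24). The letters of this motif hold ATG, the start codon, and whether these matches mark the start of the coding sequence was not tested. The E-box CACGTG, of the kind bound by MYC, was in 5 (8.06% against 7.24%), and the ERR motif TCAAGGTCA in 0 (0.407% of all promoters). In all, 28 of the 62 held at least 1 of these motifs. The median GC content was 58.2% in these promoters and 52.7% in all, and its part in the shares was not tested. A match here is a run of letters and not a shown binding site. The bases from 50 before the start to 49 after it are printed for 4 genes named elsewhere in the text. These examples of the ETS, NRF1 and YY1 motifs run 5′ to 3′ along the gene's strand. The motif is in capitals and may stand as its reverse complement, and each of the 4 promoters held 1 kind of the 5 motifs. They lie at chr14:54426859-54426958 (plus strand, Mrpl52, ETS motif), chr9:98601630-98601729 (minus strand, Mrps22, ETS motif), chr7:105811038-105811137 (minus strand, Mrpl17, NRF1 motif) and chr19:6057706-6057805 (minus strand, Mrpl49, YY1 motif).
Mrpl52: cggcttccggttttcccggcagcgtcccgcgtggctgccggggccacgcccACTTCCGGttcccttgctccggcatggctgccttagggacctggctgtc
Mrps22: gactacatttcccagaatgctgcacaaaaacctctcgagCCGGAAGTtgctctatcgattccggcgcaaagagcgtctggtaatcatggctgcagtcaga
Mrpl17: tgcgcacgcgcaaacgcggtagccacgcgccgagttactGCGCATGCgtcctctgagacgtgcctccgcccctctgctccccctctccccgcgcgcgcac
Mrpl49: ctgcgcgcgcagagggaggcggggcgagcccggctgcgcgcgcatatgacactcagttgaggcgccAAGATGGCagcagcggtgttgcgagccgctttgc

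The first comparison asked which members had changed by the late phase of RANKL treatment without αKG. Against 0 h, 2 of the 71 genes were higher in DW late arrays and 0 were lower, and over all genes tested 3.34% were higher, so the members' share of calls was close to the background. Over the 71 genes the median difference was 0.10 log2, and 50 were above 0, against 49.86% of all genes tested. Without the 48 h array the median was -0.0044 log2, and without the 72 h array it was 0.23 log2. The 2 genes were Mrps35 and Mrpl2. Mrps35, a small-subunit protein without a bacterial counterpart, had log2 values of 7.46 and 7.67 in DW late arrays, 6.84 at 24 h and 6.18 at 12 h, against 6.19 and 6.39 at 0 h. Both late arrays lay far above the 0 h arrays, and the 24 h array lay between. The late difference from 0 h was 1.27 ± 0.19 log2 (limma, adjusted p = 0.003373).

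Mrpl2, a large-subunit protein close to the peptidyl transferase centre, had log2 values of 8.06 and 8.04 in DW late arrays, against 7.39 and 7.58 at 0 h. The groups did not overlap, and the difference was 0.56 ± 0.14 log2 (limma, adjusted p = 0.03282). The call was lost when any of the 4 arrays compared was left out, with adjusted p from 0.05148 to 0.2315. Beyond the threshold here were Mrpl34, with a bacterial counterpart in the large subunit, at 0.57 ± 0.17 log2 (adjusted p = 0.06601) and Mrpl45 at 0.57 ± 0.17 log2 (adjusted p = 0.07072). Mrpl34 passed without the 48 h array (0.84 log2, adjusted p = 0.004674) and when the lowest 50% by mean value were dropped (adjusted p = 0.04991), and Mrpl45 passed after quantile normalization (adjusted p = 0.03349). The lowest moderated statistics after Mrps15 were those of Mrpl49 (-0.45 ± 0.28 log2) and Mrps11 (-0.14 ± 0.12 log2), and neither passed.

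Late arrays were also set against early arrays of the same arm, which all had RANKL. In the DW arm 3 of the 71 genes were higher and 0 lower, against 2.29% of all genes tested that were higher, and 60 of 71 differences were above 0 (47.98% of all genes tested). The median was 0.18 log2, against -0.01 over all genes. The 3 genes were Mrps35 (1.52 ± 0.19 log2, limma, adjusted p = 0.001508), Mrps34 (0.75 ± 0.18 log2, adjusted p = 0.04121) and Mrpl2 (0.56 ± 0.14 log2, adjusted p = 0.0425). Mrps34, a small-subunit protein linked to Leigh syndrome in humans, had log2 values of 7.80 and 7.58 in DW late arrays, against 6.85 and 7.04 in DW early arrays. The late values were above both 0 h values (7.07 and 7.33) and the early values below both. Without the 3, 6 or 72 h array only Mrps35 remained called, and without the 48 h array Mrps35, Mrpl34 and Mrps36 were. The median was 0.05 log2 without the 48 h array. The DW late and DW early comparisons with 0 h share their control arrays, and so do those of the αKG arm.

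In the αKG arm the same comparison called 0 of the 71 genes (1.25% of all genes tested were called in either direction). At an unadjusted p under 0.05 were 5 members, all higher, against 5.571% of all genes that were higher. By direction, 56 of 71 differences were above 0, against 51.84% of all genes, with a median of 0.12 log2. That median rested on the 48 h array, without which it was 0.00 log2. The highest statistics were those of Mrps35 (0.71 ± 0.19 log2, limma, adjusted p = 0.1403), Mrpl10 (0.40 ± 0.12 log2, adjusted p = 0.1583) and Mrpl24 (0.39 ± 0.13 log2, adjusted p = 0.2271). The lowest belonged to Mrpl39 (-0.39 ± 0.18 log2), Mrps16 (-0.21 ± 0.13 log2) and Mrps27 (-0.37 ± 0.25 log2). Mrpl10 forms the base of the stalk, and Mrpl24 lies near the tunnel through which the new protein leaves.

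No other comparison with 0 h called a member in limma's fit of all 8 groups. In DW early arrays 0 of 71 were called (0.341% of all genes tested) and 0 had an unadjusted p under 0.05. Over all genes 3.794% were higher and 2.338% lower at that unadjusted level. In DW intermediate arrays 0 were called (0.779% of all genes) and 2, each higher, had an unadjusted p under 0.05, against 4.315% of all genes that were higher. In the αKG arm 0 were called in the fast phase (0% of all genes), 0 in the early phase (0.502%), 0 in the intermediate phase (0.67%) and 0 in the late phase (1.43%), with 0, 2, 2 and 1 members at an unadjusted p under 0.05. Of all genes tested 2.08%, 4.483%, 4.766% and 5.842% were higher at that level in these phases. Lower were 1.398%, 3.562%, 4.657% and 5.996%. Medians over the 71 genes were -0.07, -0.09, -0.03 and 0.04 log2 in the αKG fast, early, intermediate and late phases, and -0.06 and 0.02 log2 in the DW early and intermediate phases. The intermediate and late medians each join arrays whose means lie on opposite sides of 0 h in the αKG arm, as does the DW intermediate one.

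Mrpl45, which anchors the ribosome to the inner membrane at the mouth of the exit tunnel, had the highest statistic in 5 of these 6 comparisons, though it passed in none. Its log2 values in the αKG arm were 7.06, 7.17, 7.46, 7.60, 7.88, 7.49, 7.82 and 7.69 from 0.5 to 72 h. In the DW arm they were 7.38, 7.55, 7.76, 7.75, 7.88 and 7.52 from 3 to 72 h, against 7.19 and 7.08 at 0 h. Every array from 3 h on was above both 0 h arrays in each arm, and at 12 h, where the mean of the members was below 0 h in both arms, it had its highest array in the αKG arm. The differences from 0 h were 0.40 ± 0.17, 0.55 ± 0.17 and 0.62 ± 0.17 log2 in the αKG early, intermediate and late phases (limma, adjusted p = 0.5584, 0.2423 and 0.1185). In the DW early and intermediate phases they were 0.33 ± 0.17 and 0.62 ± 0.17 log2 (adjusted p = 0.9036 and 0.1596).

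The other high values in these phases belonged to few genes. Mrpl54, a large-subunit protein without a bacterial counterpart, differed from 0 h by 0.28 ± 0.18, 0.43 ± 0.18 and 0.37 ± 0.18 log2 in the αKG early, intermediate and late phases, and Mrpl39 by 0.29 ± 0.18 log2 in the early one. Mrpl14 differed by 0.21 ± 0.13 and 0.24 ± 0.13 log2 in the αKG fast and intermediate phases and by 0.22 ± 0.13 log2 in the DW intermediate phase. In the αKG fast phase Mrpl27 (0.30 ± 0.22 log2) and Mrpl4 (0.16 ± 0.13 log2) came next, and in the αKG late phase Mrps35 (0.42 ± 0.19 log2). In the DW early phase Mrpl52 (0.38 ± 0.23 log2) and Mrpl39 (0.25 ± 0.18 log2) followed Mrpl45, and in the DW intermediate phase Mrpl36 (0.39 ± 0.17 log2) did. None of these passed.

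Low values were as small. Mrps11, in the platform of the small subunit, was among the 3 lowest statistics in the αKG fast (-0.19 ± 0.12 log2), intermediate (-0.20 ± 0.12 log2) and late (-0.17 ± 0.12 log2) phases and in the DW early phase (-0.22 ± 0.12 log2). Mrpl48 was lowest in the αKG fast (-0.22 ± 0.12 log2) and intermediate (-0.23 ± 0.12 log2) phases, with Mrps33 (-0.19 ± 0.13 log2) and Mrpl42 (-0.35 ± 0.23 log2) beside it. In the αKG early phase Mrpl10 (-0.32 ± 0.12 log2), Mrps34 (-0.31 ± 0.18 log2) and Mrpl19 (-0.36 ± 0.22 log2) were lowest, and in the αKG late phase Mrps27 (-0.32 ± 0.25 log2) and Mrpl20 (-0.28 ± 0.26 log2). The DW early phase added Mrps25 (-0.31 ± 0.17 log2) and Mrpl19 (-0.33 ± 0.22 log2), and the DW intermediate phase had Mrps16 (-0.20 ± 0.13 log2), Mrps28 (-0.29 ± 0.21 log2) and Mrps14 (-0.33 ± 0.25 log2). None passed.

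The second question was what αKG did to these genes at the same time of culture. At 3, 6, 12, 24, 48 and 72 h, 34, 42, 29, 57, 53 and 44 of the 71 genes were lower in the αKG array than in the DW array. The share of all genes tested that were lower lay between 46.86% and 53.56% at these times. The median of αKG minus DW was 0.00, -0.04, 0.02, -0.10, -0.09 and -0.07 log2. At 3 h the mean difference of -0.01 log2 changed sign after quantile normalization and after centring on array medians, and at the other 5 times it kept its sign under both. The negative medians of at least 0.07 log2 in size were those from 24 h on, and each of these times rests on 1 array per arm. At all of 24, 48 and 72 h, 32 genes were lower and 5 higher with αKG, while 17.33% of all genes tested were lower at all 3. The share of all genes that were higher at all 3 was not taken, so the 5 cannot be set against it.

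**Figure D3:**
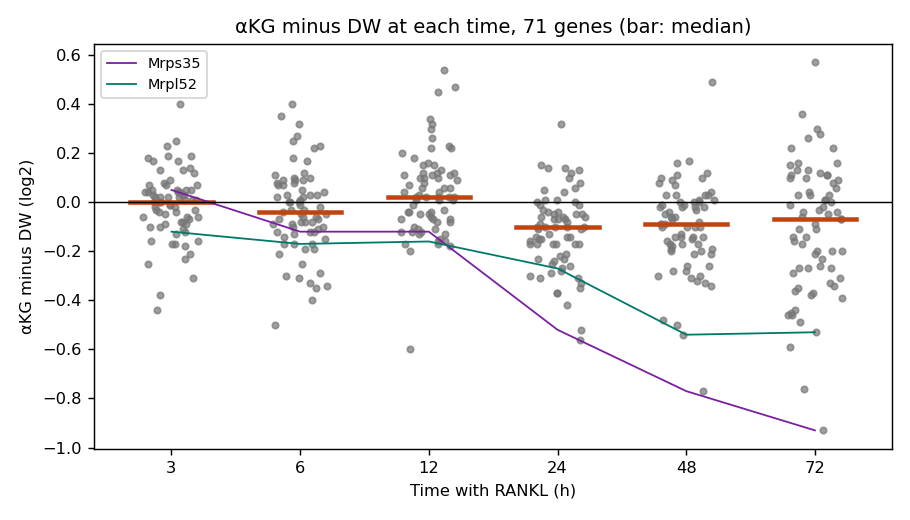
αKG minus DW in log2 (vertical axis) for each of the 71 genes at each shared time (horizontal axis, h); points are genes, bars are medians, and lines follow Mrps35 and Mrpl52. The medians lie near 0 up to 12 h and between -0.10 and -0.07 from 24 h, and Mrps35 lies at -0.93 at 72 h.

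Over the 6 shared times, with time as a block, 0 of the 71 genes were called (limma; 0.399% of all genes tested were). At an unadjusted p under 0.05 were 10 members, all 10 of them lower with αKG. Over all genes tested 6.505% were lower and 6.769% higher at that level. The median over the 71 genes was -0.05 log2. The lowest statistics were those of Mrpl52 (-0.29 ± 0.07 log2, adjusted p = 0.1306), Mrpl10 (-0.25 ± 0.07 log2, adjusted p = 0.166) and Mrpl51 (-0.25 ± 0.07 log2, adjusted p = 0.1673). The highest were those of Mrpl24 (0.13 ± 0.06 log2), Mrpl54 (0.12 ± 0.06 log2) and Mrpl39 (0.09 ± 0.05 log2). Lower with αKG at all 6 times were 8 genes, Mrpl10, Mrpl17, Mrpl34, Mrpl42, Mrpl51, Mrpl52, Mrpl55 and Mrps5, and 0 were higher at all 6. Over all genes tested the shares were 3.98% and 4.36%.

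By phase, 0 members were called in the early phase (0.161% of all genes tested, 2 members at an unadjusted p under 0.05) and 0 in the intermediate phase (0.0966%, 5 members). At that unadjusted level 2 members were lower in the early phase, against 5.05% of all genes tested. In the intermediate phase 4 were lower and 1 higher, against 4.418% and 4.934% of all genes. The lowest statistics in the early phase were Mrpl10 (-0.39 ± 0.11 log2), Mrpl51 (-0.29 ± 0.12 log2) and Mrpl17 (-0.24 ± 0.11 log2), and the highest Mrpl9 (0.21 ± 0.13 log2), Mrps10 (0.23 ± 0.15 log2) and Mrps11 (0.15 ± 0.11 log2). In the intermediate phase the lowest were Mrpl32 (-0.41 ± 0.14 log2), Mrpl52 (-0.21 ± 0.08 log2) and Mrpl12 (-0.33 ± 0.13 log2), and the highest Mrpl24 (0.27 ± 0.09 log2), Mrpl54 (0.22 ± 0.11 log2) and Mrpl4 (0.16 ± 0.11 log2). None of these passed in limma's fit with 1 effect per phase.

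In the late phase 4 of the 71 genes were lower with αKG and 0 higher, against 2.18% of all genes tested that were lower. The median was -0.10 log2, against 0.01 over all genes, and 52 of 71 differences were below 0 (47.93% of all genes). Large-subunit genes had a median of -0.10 log2 and small-subunit genes one of -0.06 log2, with 2 calls each. Markers of other cells differed between the same arrays. All 7 neutrophil markers were above 0, with Camp (0.69 ± 0.14 log2) and Mmp8 (0.81 ± 0.18 log2) called higher with αKG. Of the 8 macrophage markers 5 were above 0 and 3 below, and 1, Itgam (0.39 ± 0.07 log2), was called higher. All 8 osteoclast markers were called lower. The neutrophil list's mean difference from 0 h was -1.83 and -2.32 log2 at 48 and 72 h with αKG, against -2.34 and -2.53 log2 with DW, and the part of these markers in the members' values was not tested. The 42 genes with a bacterial counterpart and the 27 found only in mitochondria had the same median of -0.10 log2, with 1 and 3 calls.

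Mrps35 had log2 values of 6.69 and 6.74 in αKG late arrays, against 7.46 and 7.67 in DW late arrays. The groups were far apart, and the αKG values still lay above both 0 h arrays. Over all genes tested αKG minus DW had an SD of 0.412 log2 at 72 h, against 0.216 to 0.282 log2 at the other shared times. The DW array at 72 h also had the lowest mean correlation with the other arrays (0.928). For Mrps35 αKG minus DW was 0.05 and -0.12 at 3 and 6 h and -0.12 and -0.52 at 12 and 24 h. It reached -0.77 and -0.93 at 48 and 72 h. The late difference was -0.85 ± 0.13 log2 (limma, adjusted p = 0.01119). Without the 72 h pair it was -0.77 log2 and missed the threshold (adjusted p = 0.06674).

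Mrpl52, a large-subunit protein without a bacterial counterpart whose promoter is printed above, had log2 values of 9.30 and 9.04 in αKG late arrays, against 9.84 and 9.56 in DW late arrays. The αKG arm was 9.11, 9.10, 9.31, 9.35, 8.92 and 9.49 from 0.5 to 24 h, and the DW arm was 9.42, 9.52, 9.08 and 9.75 from 3 to 24 h, against 9.11 and 9.08 at 0 h. The αKG value was below the DW value at each shared time. In the late phase the difference was -0.53 ± 0.08 log2 (limma, adjusted p = 0.01109).

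Mrps34 had log2 values of 7.30 and 7.08 in αKG late arrays, against 7.80 and 7.58 in DW late arrays, a difference of -0.50 ± 0.11 log2 (limma, adjusted p = 0.04243). Mrpl34 had 7.92 and 8.02 in αKG late arrays, against 8.25 and 8.78 in DW late arrays, a difference of -0.54 ± 0.12 log2 (adjusted p = 0.04372). For both genes the αKG late arrays lay below the DW late arrays. Mrpl34 owed most of its difference to 72 h, where αKG minus DW spread most over all genes tested. Without the 72 h pair it was -0.32 log2 (adjusted p = 0.3468), and leaving out any pair but that at 48 h ended the call. The call of Mrps34 was lost without any 1 of the 6 pairs. With the 8 groups fitted without the time block, 0 of the 4 calls stood.

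**Figure D4:**
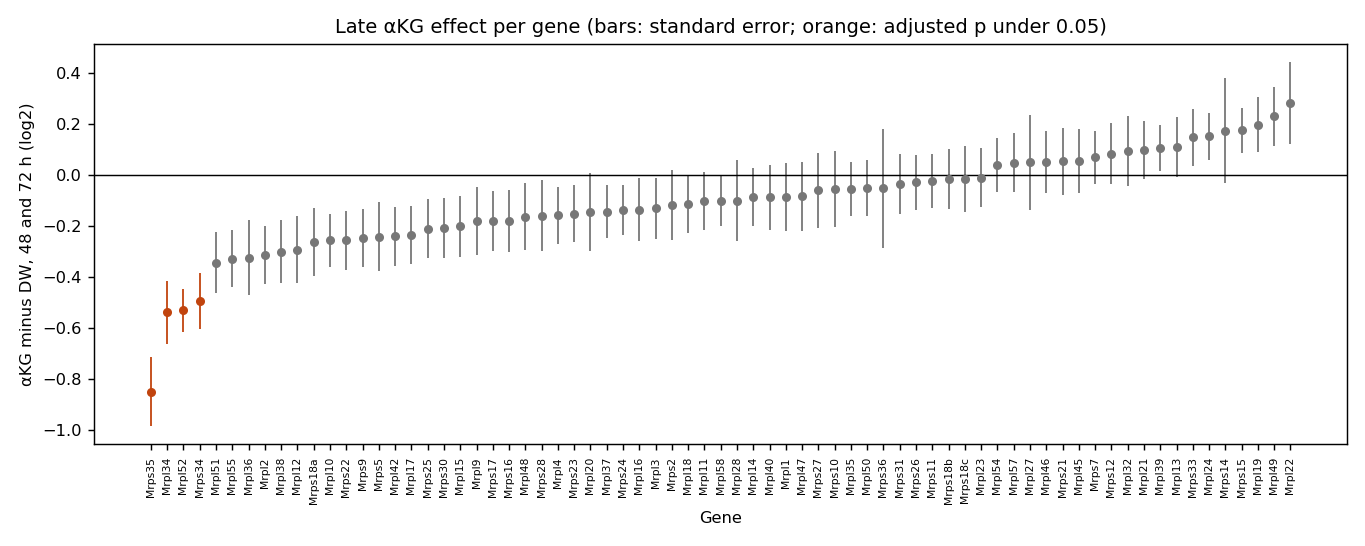
αKG minus DW in log2 over 48 and 72 h (vertical axis) for each of the 71 genes (horizontal axis, in order), with standard errors as bars. The 4 genes past an adjusted p of 0.05 (orange) are Mrps35, Mrpl34, Mrpl52 and Mrps34, between -0.85 and -0.50, and the rest lie between -0.34 and 0.28.

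The highest late statistics, none past the threshold, were those of Mrpl49 (0.23 ± 0.12 log2), Mrps15 (0.17 ± 0.09 log2) and Mrpl19 (0.20 ± 0.11 log2). Mrpl49, whose promoter is printed above, had values of 7.91 and 7.52 in αKG late arrays, against 7.75 and 7.22 in DW late arrays. Whether the late effect differed from the early one was tested as a contrast in limma, and 0 members passed, against 0.605% of all genes tested. At an unadjusted p under 0.05 were 4 members, all with a negative contrast, against 6.177% of all genes that had one. The lowest were Mrps35 (-0.82 ± 0.19 log2, adjusted p = 0.09252), Mrpl52 (-0.39 ± 0.12 log2, adjusted p = 0.1779) and Mrps34 (-0.44 ± 0.16 log2, adjusted p = 0.2401). The highest were Mrpl22 (0.48 ± 0.23 log2), Mrpl49 (0.34 ± 0.16 log2) and Mrpl13 (0.29 ± 0.17 log2). Without the 48 h pair 2 members passed, Mrps35 (-0.90 log2, adjusted p = 0.03131) and Mrpl34 (-0.58 log2, adjusted p = 0.0488).

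Several members of known function gave values without a call in the late phase. Mrps36, the dehydrogenase subunit, had 4.93 and 4.66 in αKG late arrays and 4.44 and 5.25 in DW late arrays, against 4.45 and 4.83 at 0 h, so the groups overlapped. Mrpl11, at the base of the stalk, had 7.32 and 7.03 in αKG late arrays and 7.51 and 7.05 in DW late arrays, against 7.19 and 7.22 at 0 h. Mrpl3, near the peptidyl transferase centre, had 7.81 and 7.22 in αKG late arrays and 7.81 and 7.49 in DW late arrays, against 7.73 at 0 h in both arrays. In Mrpl11 and Mrpl3 the 48 and 72 h arrays of an arm differed more than the arms did.

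Among the small-subunit proteins, Mrps12, of the decoding site, had 6.72 and 6.55 in αKG late arrays and 6.68 and 6.42 in DW late arrays, against 6.44 and 6.60 at 0 h. Mrps7, of the head, had 8.11 and 7.78 in αKG late arrays and 8.12 and 7.63 in DW late arrays, against 7.84 and 7.87 at 0 h. In the large subunit, Mrps30 had 7.83 and 7.46 in αKG late arrays and 7.98 and 7.72 in DW late arrays, against 7.52 and 7.53 at 0 h. Of these 3, Mrps30 alone had both DW late arrays above both 0 h arrays.

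The course of the mitoribosome genes was set beside that of the respiratory chain, whose core subunits this ribosome makes. Of a list of 70 nuclear genes for oxidative phosphorylation, 64 were measured. Their mean differed from 0 h by 0.00, -0.02, 0.10, -0.00, 0.11 and 0.18 log2 at 3, 6, 12, 24, 48 and 72 h in the αKG arm, and by 0.01, 0.02, 0.14, 0.07, 0.30 and 0.60 log2 in the DW arm. They were therefore highest at 72 h, where the mitoribosome mean had returned towards its 0 h level. In DW late arrays 22 of the 64 were higher than at 0 h and 0 lower, against 3.34% of all genes tested that were higher. Uqcrc2 (0.89 ± 0.14 log2) and Cyc1 (1.09 ± 0.19 log2) of complex III had the smallest p. With αKG 12 of the 64 were lower in the late phase and 0 higher, against 2.18% of all genes tested that were lower. Ndufv2 of complex I led them (-0.56 ± 0.09 log2, limma, adjusted p = 0.01344), and 58 of the 64 were below 0. The difference between the lists was not tested.

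Genes for the cytosolic ribosome, which makes all other proteins of the cell, were also highest at 48 h and near 0 at 72 h. Of 78 listed genes 58 were measured. At 6 and 12 h their mean differed from 0 h by 0.03 and -0.04 log2 in the αKG arm and by -0.01 and -0.02 log2 in the DW arm. Of the shared times 12 h was thus their lowest in each arm. The mitoribosome mean lay further below 0 h at 12 h (-0.10 log2 with αKG and -0.14 log2 with DW). At 24, 48 and 72 h their mean differed from 0 h by 0.09, 0.22 and 0.00 log2 in the αKG arm and by 0.19, 0.32 and 0.05 log2 in the DW arm. In DW late arrays 5 of the 58 were higher than at 0 h (3.34% of all genes tested were), Rpl23a (0.55 ± 0.11 log2) first among them, and 0 were lower. With αKG 1 was lower in the late phase (2.18% of all genes tested were), Rps15 (-0.83 ± 0.13 log2, limma, adjusted p = 0.01227). A list of 14 measured genes of mitosis differed from 0 h by -0.91, -1.08, 0.01 and -0.37 log2 at 12, 24, 48 and 72 h in the αKG arm and by -0.42, -0.55, 0.00 and -1.85 log2 in the DW arm. This list was therefore low at 24 h, where the mitoribosome genes were high, and its part in their values was not tested.

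**Figure D5:**
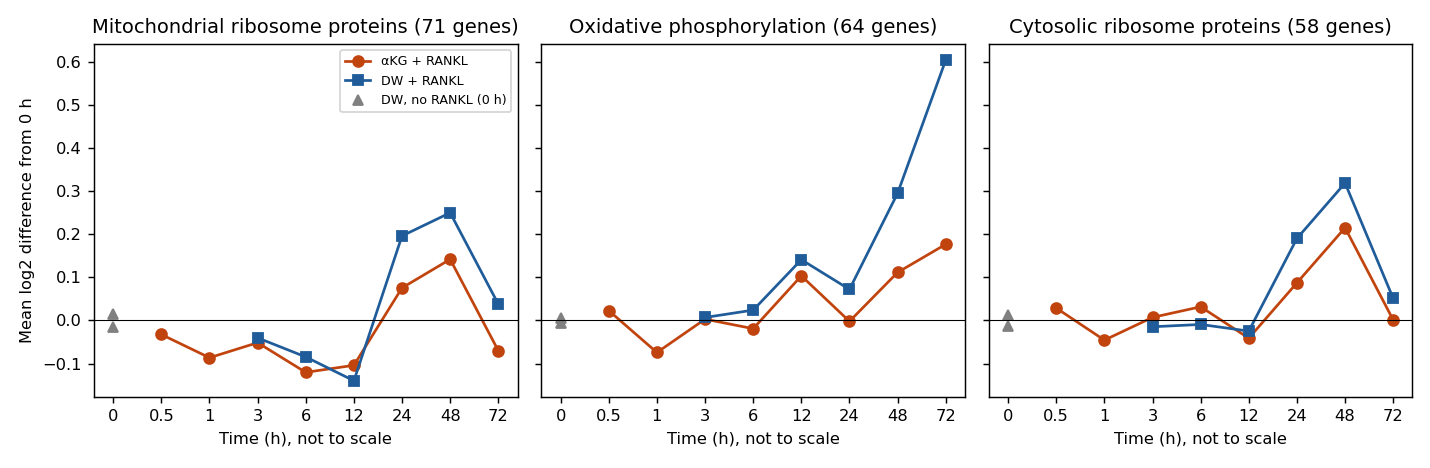
Mean log2 difference from the 0 h arrays (vertical axis) against time in h (horizontal axis, not to scale) for 71 mitoribosome, 64 oxidative phosphorylation and 58 cytosolic ribosome genes, with αKG, with DW and at 0 h. Both ribosome lists were highest at 48 h and near 0 at 72 h, whereas the oxidative phosphorylation list reached 0.60 at 72 h with DW and 0.18 with αKG.

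Other nuclear genes of mitochondrial gene expression were called in few cases, though some lists moved like the mitoribosome mean. Mean differences from 0 h were taken at 12, 24, 48 and 72 h in the DW arm. They were -0.11, 0.17, 0.22 and 0.16 log2 for translation factors and -0.12, 0.15, 0.20 and -0.06 log2 for aminoacyl-tRNA formation. For ribosome assembly they were -0.16, 0.10, 0.10 and -0.09 log2. With αKG the means at 48 h were 0.15, 0.17 and 0.05 log2 in the same order. These likenesses were not tested. Over all genes tested 3.34% were called higher in DW late arrays than at 0 h. Of 13 measured translation factors 1 was higher in that comparison, the elongation factor Tufm (0.65 ± 0.17 log2, limma, adjusted p = 0.04962). Of 19 genes for mitochondrial aminoacyl-tRNA formation 1 was, the phenylalanyl-tRNA synthetase Fars2 (0.74 ± 0.15 log2, adjusted p = 0.01322). Of 22 genes for ribosome assembly 1 was, Mettl15 (1.03 ± 0.18 log2, adjusted p = 0.006598), which methylates the RNA of the small subunit. None of these lists had a lower call in DW late arrays or a call with αKG in the late phase, where Gfm1, an elongation factor, was just beyond the threshold (-0.50 ± 0.12 log2, adjusted p = 0.05062). Of 9 tested genes for mitochondrial DNA and transcription 0 were called in either comparison, and neither were the 4 measured ribosome or ribosome-bound proteins with other names, Dap3, Ptcd3, Gadd45gip1 and Oxa1l. Tfam, which packages mitochondrial DNA, differed from 0 h by 0.36 ± 0.24 log2 in DW late arrays, and between arms by -0.19 ± 0.15 log2 in the late phase.

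Among 9 tested regulators of mitochondrial genes, 2 were higher in DW late arrays than at 0 h, against 3.34% of all genes tested. Ppargc1b had log2 values of 6.72 and 7.83 in DW late arrays, against 5.22 and 5.54 at 0 h, and it rose by 1.89 ± 0.43 log2 (limma, adjusted p = 0.02326). Esrra had 7.47 and 7.74 in DW late arrays, against 7.01 and 7.03 at 0 h, and it rose by 0.59 ± 0.14 log2 (adjusted p = 0.03372). Both were highest at 72 h in the DW arm. In the late phase Ppargc1b had 5.71 and 6.38 with αKG, against the DW values above, a difference of -1.23 ± 0.14 log2 (adjusted p = 0.003658). Esrra had 7.32 and 7.19 with αKG, and its difference of -0.35 ± 0.14 log2 did not pass (adjusted p = 0.2216).

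Myc, a transcription factor known to promote ribosome production, followed another course. Its log2 values were 8.32, 7.74, 8.84, 8.99, 6.32, 10.30, 9.59 and 7.53 in the αKG arm from 0.5 to 72 h. In the DW arm they were 8.71, 7.83, 6.68, 10.51, 9.37 and 7.30 from 3 to 72 h, against 8.63 and 8.62 at 0 h. Myc was thus lowest at 12 h and highest at 24 h in both arms. The 24 and 48 h arrays, its highest, were also those with the highest mitoribosome means, and whether the courses are linked was not tested. Myc was not called in DW late arrays against 0 h (-0.29 ± 1.34 log2, limma, adjusted p = 0.9263) or with αKG in the late phase (0.23 ± 0.20 log2, adjusted p = 0.5917). Its 2 late arrays differed strongly in each arm, a difference in time that the block takes out of the comparison of arms. Nrf1 (-0.14 ± 0.20 log2) and Gabpa (-0.14 ± 0.15 log2), which bind motifs counted above, had values in DW late arrays that did not pass against 0 h. Yy1 had log2 values of 8.57 and 8.47 in DW late arrays, against 8.35 and 8.22 at 0 h, and was not called either.

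For 9 members with several features, the kept one and another one could be set side by side over the 16 arrays. They correlated at 0.96 for Mrps18b, 0.80 for Mrps17 and 0.79 for Mrpl12, at 0.63, 0.55, 0.42 and 0.32 for Mrpl36, Mrps5, Mrpl47 and Mrpl10, and at -0.12 and -0.20 for Mrps18c and Mrps16. The features of Mrps18c and Mrps16, both of narrow range, thus disagree, and their values are less certain. None of the genes called above has a second feature.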

How the data were processed

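RNA from 16 samples was hybridised to 1-colour arrays after the cDNA was fragmented and biotin-labelled with terminal transferase, per the labels' protocols. The values are log2 values as deposited by the authors. The base was taken from their range (0.61 to 13.25). How they were summarised and normalized, and on which build, is not given in the sources used here, so signal over background could not be set per gene.

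The tests were those of limma 3.58.1 (R 4.3.3; lmFit, eBayes with trend). Phases were compared in 1 fit of 8 groups (8 residual degrees of freedom). αKG effects used the 12 arrays at 6 shared times with time as a block, as 1 effect (5 degrees of freedom) or 1 per phase (3). P-values were adjusted by Benjamini-Hochberg over 15526 genes, with a threshold of 0.05, and ± is a standard error. Pairing by time comes from the labels. In the data, arrays of the same time deviated together from their arm means (r = 0.50 to 0.75), and 12 of 12 arrays correlated best with their own time.

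Members and lists were chosen with earlier results of these data known. Named were members past the threshold, otherwise the 3 highest and 3 lowest statistics, the 5 widest and 5 narrowest ranges, and genes of known role. Alternatives were no filter, leaving out the lowest 50%, quantile normalization, the mean of a gene's features, centring on array medians, no trend in eBayes, only the compared groups, no time block, and leaving out arrays or pairs. Symbols were matched to RefSeq (GRCm38.p6), which held all 71.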

Additional observations from a re-analysis of the deposited data

How the results depend on the processing

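No called gene changed direction under any alternative run. Other filters, no trend in eBayes, only the compared groups and no time block leave a gene's fold change as it is. Under these its direction could not change. Of the medians over the 71 genes, 6 turned sign under some alternative. Without the 48 h array that of late arrays against 0 h was -0.08 log2 with αKG (0.04 as reported) and -0.0044 with DW (0.10), and centring on array medians made the αKG one -0.01. That of αKG intermediate arrays against 0 h (-0.03) was 0.06 without the 12 h array and 0.00 without a 0 h array. That of DW intermediate arrays (0.02) was 0.20 without the 12 h array and -0.12 without the 24 h array. αKG against DW was 0.02 without the 24 h pair in the intermediate phase (-0.04), and in the early phase (-0.02) it was 0.00 after centring or without the 6 h pair. The count of members higher in DW late than in DW early arrays (3) became 1 without a filter and 0 with only the 2 groups fitted, and it ran from 1 to 3 as arrays were left out. The count lower with αKG in the late phase (4) became 2 without a filter, 2 without the trend and 0 without the time block, and it ran from 1 to 3 as pairs were left out. The count higher in DW late arrays than at 0 h (2) became 0 with only the 2 groups fitted and ran from 1 to 2 without single arrays, and it was 3 with the lowest 50% left out and 3 after quantile normalization. In DW early arrays against 0 h, where 0 were called, 1 was with only the 2 groups fitted, Mrpl52 (0.38 log2, adjusted p = 0.04947). The late minus early αKG effect (0) ran from 0 to 2. Mrps35 passed in 10 of 11 alternatives against 0 h (limma, adjusted p from 0.002579 to 0.06624) and in 11 of 13 for late αKG (0.007615 to 0.2383). Mrpl52 passed in 12 of 13 (0.009921 to 0.5765). Some alternatives had fewer arrays or genes, and the cause of these losses was not tested. A fit of 2 groups has fewer residual degrees of freedom. No paired analysis by replicate number was possible because the arrays of a phase differ in time and carry no shared number, and time was the pairing. With 1 array per condition and time after 0 h, small shifts of single members could not be tested at a given time.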
